A study of Homo sapiens with 32 samples.

Results

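The stop codon neighbourhoods described here are the spliced stretches of 200 nt on each side of the stop codon of human mRNAs, read for crosslinks of Alyref, Chtop and Nxf1, which take part in mRNA export. For each protein-coding gene the canonical transcript of the annotation was taken (or, in 281 genes without one, the transcript with the longest coding sequence), and the window was kept where the 3′ UTR was at least 200 nt long. This gave 17006 windows of 19991 stop codons, with 2985 left out for a shorter 3′ UTR. The stop codon lay in the last exon in 15859 windows and in an earlier exon, with a further exon junction in the 3′ UTR, in 1147. Of the last-exon windows, 9177 held the last exon junction within 200 nt upstream of the stop codon and 6682 held no junction, 609 of these being windows of transcripts with a single exon.

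The crosslinks came from iCLIP, in which UV light joins proteins to the RNA they touch in the cell and the base next to the end of the cDNA marks the contact. The cells were HEK293T FlpIn, an established human embryonic kidney line in which a transgene sits at a single site. Each line expressed FLAG-tagged Alyref, Chtop or Nxf1 under tetracycline (10 ng/mL for Alyref and Chtop, 5 ng/mL for Nxf1, each for 48 h), and the FLAG-only Control, for which no dose is stated, gives the background of the procedure. Each group holds 3 libraries, 12 in all, counted once each over their 32 lane runs. Nothing in the labels says that replicates are separate cultures, so the p-values measure the spread between these libraries only, which may be technical.

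Alyref and Chtop belong to TREX, a complex loaded on mRNA during transcription and splicing, and Nxf1 is the receptor that carries mRNA through the nuclear pore. The stop codon ends the coding sequence and opens the 3′ UTR, which is read by other proteins and is mostly made of a single long exon. Splicing leaves an exon junction complex upstream of each junction, and a stop codon well upstream of the last junction is a known signal for nonsense-mediated decay. Distances below are negative in the coding sequence and positive in the 3′ UTR, in spliced nt.

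To show what these neighbourhoods look like, the 30 nt around the stop codon are given for the windows with the highest level, in CPM (tags scaled to the total tags of the library), in Alyref or Chtop and for 4 of the windows with stop codon in an earlier exon and most factor tags. They were read 5′ to 3′ on the transcript strand from GRCh37. Capitals mark the stop codon, T stands for uracil, the letters before it are coding sequence and those after it are 3′ UTR.
SAT1: gcaacagaggagTGAggagtgctgctgtag
DDX39B: gaacagacacggTAGaagactcgcccattt
ZNF711: gaggctcttatgTAAtaagatcaatataaa
HNRNPH1: tcaaacattgcaTAGgtaaccaaggagcag
HNRNPL: cagcacgcctccTAAttaggtgcctaggaa
DDX5: ggatattcccaaTAAgactttagaagtata
IRS4: cccaaaagagagTGAttatattgccacaaa
DDX17: ccttcacgtaaaTGAaaccactcaagtggt
SRSF2: gcggtgtcctctTAAgaaaatgatgtatcg
TNPO2: ttctatggggtcTAGgtgatcatggagact
CTPS1: ataaatcatgacTGAtcttgtagcggatga
YBX3: agcagtgctgagTAAcaccaggctcctcag
The first 8 are the windows with the highest levels and show all 3 stop codons, and the last 4, with HNRNPH1, carry a 3′ UTR junction shortly after the stop codon. In HNRNPH1 the stop codon is the end of its exon, and the junction follows after 7 nt in SRSF2, 9 nt in CTPS1, 20 nt in TNPO2 and 34 nt in YBX3.

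Depth differed widely, from 7017 tags in Control 1 to 631704 in Alyref 2, and replicate 1 was the shallowest library of every group. The windows took 3.29% to 3.85% of all tags in the Alyref libraries, 3.95% to 6.38% in Chtop, 1.77% to 5.51% in Nxf1 and 0.822% to 3.14% in Control. At least 1 tag was found in 11005 windows (64.7%). Alyref reached 9208 windows, Chtop 9613, Nxf1 4363 and Control 992, and 3656 windows (21.5%) held tags of all 3 factors. These counts are not corrected for depth, and 0 tags in a library allows up to 3 tags. Uracil was the crosslinked base for 49.9% to 56.3% of window tags, except in Nxf1 1 (40.2%), Control 1 (38.2%) and Control 2 (46.7%).

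The first comparison asks on which side of the stop codon each factor was crosslinked. In last-exon windows Alyref was spread almost evenly over both sides, whereas Chtop and Nxf1 lay more on the 3′ UTR side. The downstream side took 53.6%, 51.1% and 53.9% of window tags in Alyref 1, 2 and 3, against 61.0%, 61.0% and 61.7% in Chtop and 60.0%, 58.0% and 57.0% in Nxf1. No Alyref library reached the lowest library of another factor, and no Chtop library fell to the highest Nxf1 library. The Control libraries spanned 56.3%, 62.2% and 66.9%, so that Alyref lay below every Control library while Chtop and Nxf1 lay within the Control range.

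On the log2 scale (downstream over upstream tags, with a pseudocount of 0.5), the ratio was lowest in Alyref, at 0.17 ± 0.09 (SD, n = 3). Chtop stood at 0.66 ± 0.03, Nxf1 at 0.48 ± 0.09 and Control at 0.70 ± 0.32 (SD, n = 3 each). Alyref lay 0.41 below the mean of the other factors (two-sided exact permutation test over 84 splits, p = 0.0238, the smallest possible, and 0.0857 after Benjamini-Hochberg adjustment over 18 tests). Chtop lay 0.34 above the other factors with the same permutation p = 0.0238 and adjusted p = 0.0857. For Nxf1 the difference was 0.07 (exact permutation p = 0.69). Against Control, 3 libraries against 3 cannot give an exact permutation p below 0.1, which Alyref reached with a difference of -0.53. No test in either family of 18 passed 0.05 after adjustment. The Chtop difference was smaller when the windows were cut to 100 nt on each side (0.13, exact permutation p = 0.21) or when uracils alone were counted, per uracil present (0.20, exact permutation p = 0.26), and the Alyref difference was -0.23 with 100 nt on each side and -0.45 per uracil (exact permutation p = 0.0238 for both).

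**Figure D1:**
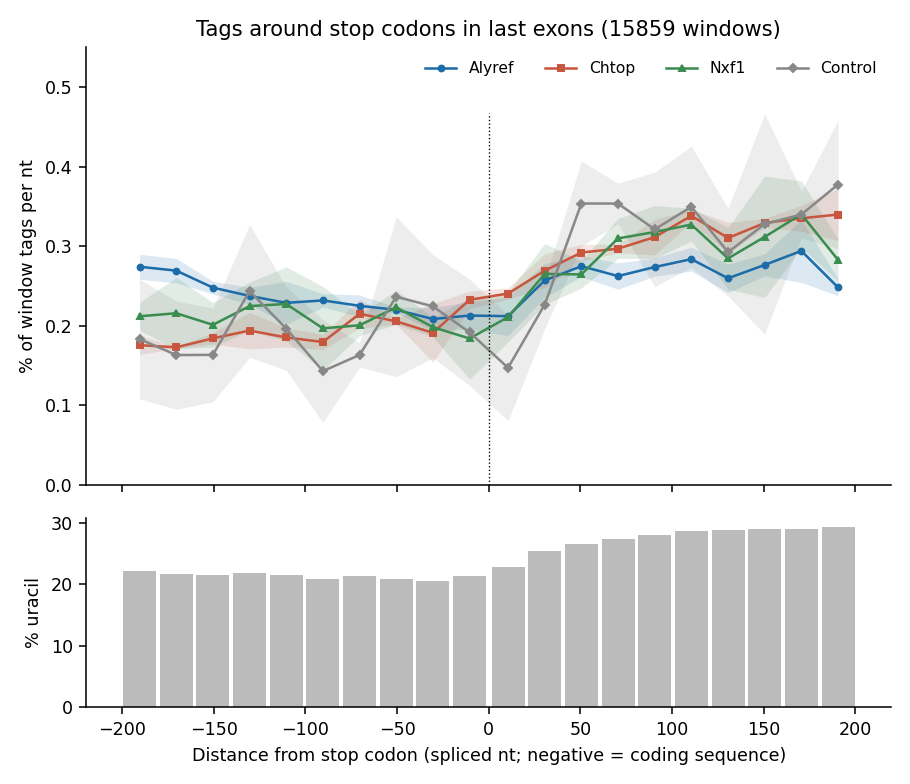
Share of window tags per nt (y axis, in percent, 20-nt bins, mean of 3 libraries with SD as shading) by distance from the stop codon (x axis, spliced nt) in the 15859 last-exon windows, with the percentage of uracil per bin below. Alyref fell towards the stop codon and rose after it, with its pooled minimum of 0.206% per nt at -40 to -21, whereas pooled Chtop rose from a minimum of 0.170% at -200 to -181 to a maximum of 0.335% at 101 to 120.

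The pooled profiles of Alyref and Chtop followed different courses upstream of the stop codon, while all 3 factors had their pooled maximum in the same bin. Pooled over 3 libraries, Alyref fell from 0.276% of window tags per nt at -200 to -181 to 0.206% at -40 to -21, and rose again to 0.278% at 101 to 120. Chtop was lowest at the upstream edge, with 0.170%, and rose through the stop codon (0.230% at -20 to -1, 0.243% at 1 to 20) to 0.335% at 101 to 120. Nxf1 had its minimum at -40 to -21 (0.196%) and its maximum at 101 to 120 (0.335%), and Control, with only 1144 tags in these windows, had its minimum at -80 to -61 and its maximum at 41 to 60. Single libraries did not all share these bins. The minimum lay at -200 to -181 in Chtop 2 and 3 but at -40 to -21 in Chtop 1. The maximum lay at -200 to -181 in Alyref 2 but at 161 to 180 in Alyref 1 and 141 to 160 in Alyref 3. The base composition changed over the same bases, with 21.4% uracil in the upstream and 27.5% in the downstream side. Uracil was the base most often crosslinked, so the ratio was also taken over tags at uracils, per uracil present. Counted this way, Alyref stood at 0.13 ± 0.11, Chtop at 0.57 ± 0.03, Nxf1 at 0.60 ± 0.19 and Control at 0.78 ± 0.23 (SD, n = 3 each).

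Tags did not gather at the stop codon itself. The share of window tags within 50 nt of the stop codon was 23.4% ± 0.25 in Alyref, 24.03% ± 1.42 in Chtop, 22.7% ± 0.99 in Nxf1 and 21.04% ± 1.67 in Control (SD, n = 3 each), where an even spread would give 25.6%. No library of any group exceeded the even share, and no difference between factors passed 0.05 (exact permutation p = 0.98, 0.17 and 0.19 for Alyref, Chtop and Nxf1 against the other factors). The first uracil of the stop codon was hit at 12.8 tags per 1000 codons by Alyref, 17.6 by Chtop, 2.00 by Nxf1 and 0.353 by Control. The uracils of other UAA, UAG and UGA triplets in the windows were hit at 12.1, 17.2, 1.84 and 0.302 per 1000, so that the log2 ratio of stop codon to other triplets was 0.07, 0.04, 0.14 and 0.33. These rest on 217, 300, 34 and 6 tags at stop codons.

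Compared with the sequence between 200 and 400 nt away on both sides, in the 13807 windows with room for it, the windows were slightly poorer in Alyref tags and slightly richer in Nxf1 tags. The log2 ratio of window to flank was -0.04, -0.08 and -0.11 in Alyref 1, 2 and 3, 0.03, 0.04 and 0.01 in Chtop, 0.17, 0.05 and 0.05 in Nxf1 and -0.06, 0.01 and -0.26 in Control. All Alyref libraries lay below those of the other factors, and all Nxf1 libraries above them, although Nxf1 2 and Chtop 2 were nearly level. The differences to the other factors were -0.13 for Alyref and 0.11 for Nxf1 (exact permutation p = 0.0238 and adjusted p = 0.0857 for each), both smaller than the range of the Control libraries.

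**Figure D2:**
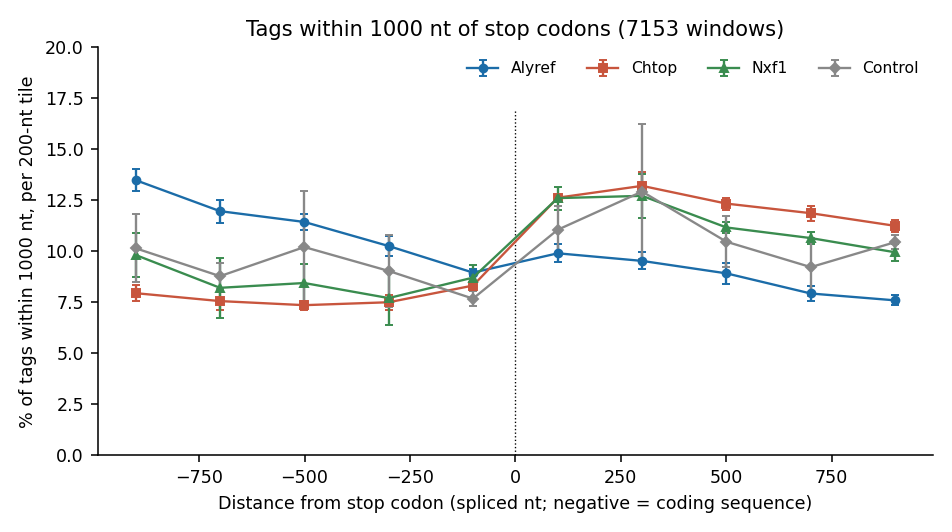
Percentage of tags within 1000 nt of the stop codon that fell in each 200-nt tile (y axis, mean of 3 libraries, bars are SD) by distance (x axis, spliced nt) in 7153 windows with at least 1000 nt of coding sequence and of 3′ UTR. Alyref went from 13.5% in the first tile to 7.60% in the last, with a rise from 8.96% to 9.90% at the stop codon, whereas Chtop stepped up at the stop codon from 8.32% to 12.6%.

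Over a wider range, Chtop and Nxf1 rose at the stop codon by more than Alyref. In 7153 windows with 1000 nt on both sides, the Chtop share of a 200-nt tile was 7.36% to 8.32% in the 5 coding tiles and 11.2% to 13.2% in the 5 tiles of the 3′ UTR. The step from the last coding tile to the first 3′ UTR tile was from 8.32% ± 0.11 (SD, n = 3) to 12.6% ± 0.14 (SD, n = 3) in Chtop and from 8.71% ± 0.64 (SD, n = 3) to 12.6% ± 0.56 (SD, n = 3) in Nxf1. In Alyref the same step was from 8.96% ± 0.18 (SD, n = 3) to 9.90% ± 0.45 (SD, n = 3), within a course that went from 13.5% at -1000 to -801 down to 7.60% at 801 to 1000. Control went from 7.68% ± 0.35 (SD, n = 3) to 11.1% ± 1.17 (SD, n = 3). Uracil content changed at the same place, from 21.5% in the last coding tile to 27.8% in the first 3′ UTR tile, and its part in the step was not tested.

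**Figure D3:**
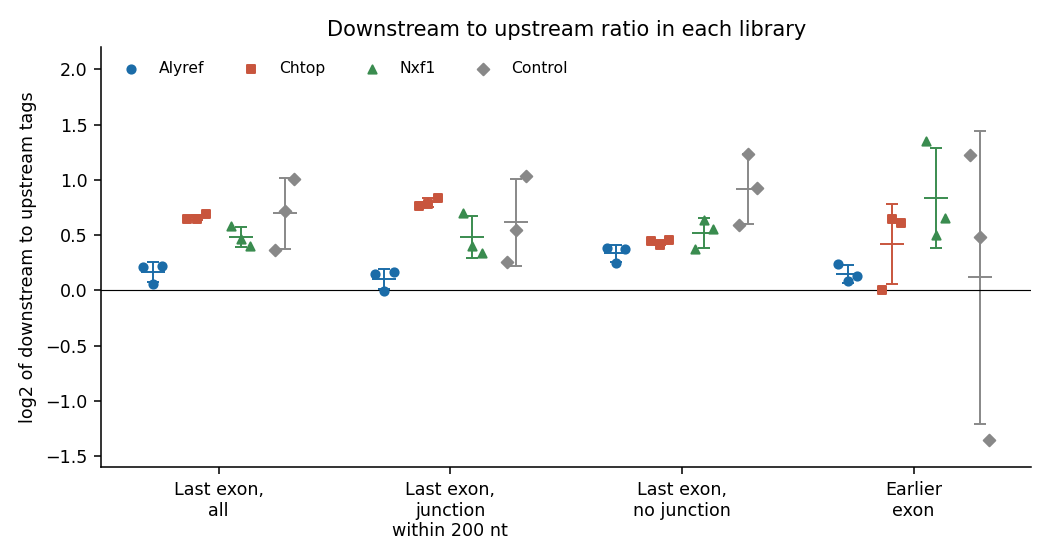
Log2 ratio of downstream to upstream tags (y axis) in each library (points, with mean and SD) for 4 classes of windows (x axis). Where the last junction lay within 200 nt upstream, the 3 Chtop libraries sat between 0.76 and 0.84 and the 3 Alyref libraries between -0.00 and 0.17, while without a junction all factor libraries lay between 0.25 and 0.64. Control ran from 0.26 to 1.04 with the junction and from 0.59 to 1.23 without it.

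The second comparison split the last-exon windows by the last exon junction. A junction close upstream went with a higher downstream to upstream ratio in Chtop and a lower one in Alyref and, on average, in Control. With the junction within 200 nt, the log2 ratio was 0.76, 0.79 and 0.84 in Chtop 1, 2 and 3 and 0.15, -0.00 and 0.17 in Alyref, which do not overlap. Without a junction in the window it was 0.45, 0.41 and 0.45 in Chtop and 0.38, 0.25 and 0.38 in Alyref, still apart but with a smaller gap. In Nxf1 the ratios were 0.70, 0.40 and 0.34 with the junction and 0.37, 0.64 and 0.55 without it. The Control ratios were 0.26, 0.55 and 1.04 with the junction and 0.59, 1.23 and 0.93 without it. Chtop thus lay within the Control range with the junction, and without it every Alyref and Chtop library lay below every Control library.

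The difference between both kinds of window was -0.24, -0.25 and -0.21 in Alyref, 0.32, 0.38 and 0.39 in Chtop, 0.32, -0.24 and -0.21 in Nxf1 and -0.33, -0.68 and 0.11 in Control. It was negative in 3 of 3 Alyref and positive in 3 of 3 Chtop libraries, while Nxf1 1, the shallowest Nxf1 library, was positive and the other Nxf1 libraries were negative. Chtop exceeded the mean of the other factors by 0.50 (exact permutation p = 0.0476, adjusted p = 0.143) and Alyref lay 0.39 below it (exact permutation p = 0.12, adjusted p = 0.214). Against Control, Alyref differed by only 0.07 (exact permutation p = 0.7) and Chtop by 0.66 (exact permutation p = 0.1, the smallest possible). The Chtop difference stayed positive but passed 0.05 no longer when windows were weighted equally (0.40, exact permutation p = 0.095) or cut to 100 nt on each side (0.29, exact permutation p = 0.31).

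**Figure D4:**
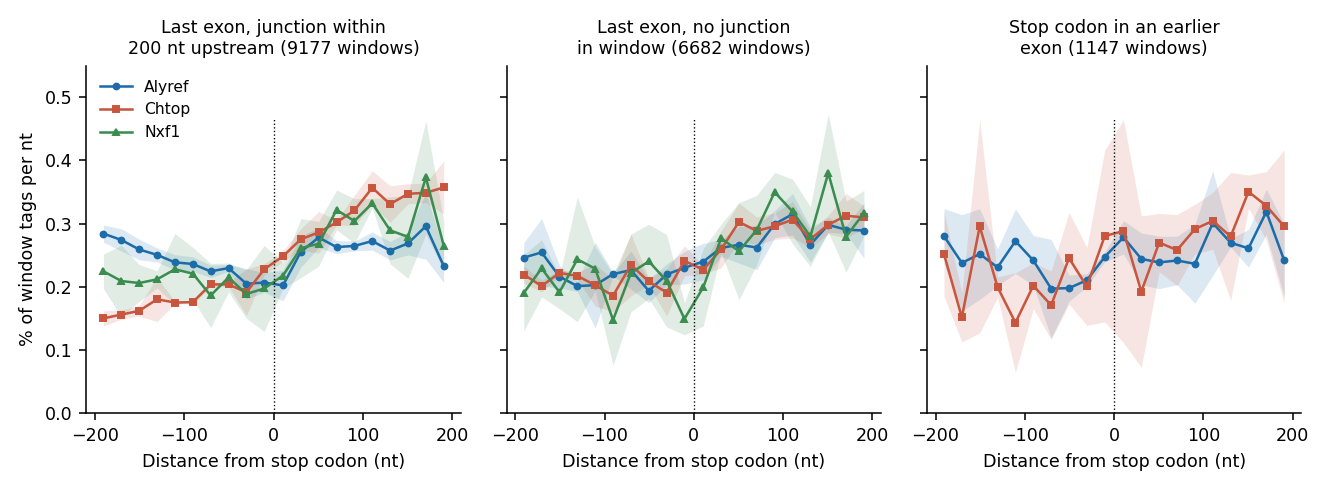
Share of window tags per nt (y axis, percent, mean of 3 libraries with SD as shading) by distance from the stop codon (x axis, spliced nt) in 3 classes of windows. Alyref and Chtop diverged at the upstream edge of windows with a junction (pooled 0.287% and 0.145% per nt at -200 to -181) and lay closer together where the window held no junction. Nxf1 is not drawn for earlier-exon windows because of its low counts.

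The factors differed most in the exon before the last. In 5463 windows with the junction 50 to 150 nt upstream of the stop codon, tag density per nt was compared between the penultimate exon, the coding part of the last exon and the 3′ UTR side. The penultimate exon exceeded the coding part of the last exon in Alyref by 0.34, 0.41 and 0.42 on the log2 scale and fell below it in Chtop by -0.21, -0.56 and -0.59. The Nxf1 values were -0.36, -0.09 and 0.09 and the Control values 0.23, 0.18 and -0.33, so both groups overlapped 0. Against the 3′ UTR side, the penultimate exon was at 0.13 ± 0.10 (SD, n = 3) in Alyref, -1.03 ± 0.20 (SD, n = 3) in Chtop and -0.52 ± 0.28 (SD, n = 3) in Nxf1. The coding part of the last exon was at -0.26 ± 0.07 (SD, n = 3), -0.57 ± 0.03 (SD, n = 3) and -0.40 ± 0.07 (SD, n = 3), below the 3′ UTR in every library. These densities are a description, without a test.

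**Figure D5:**
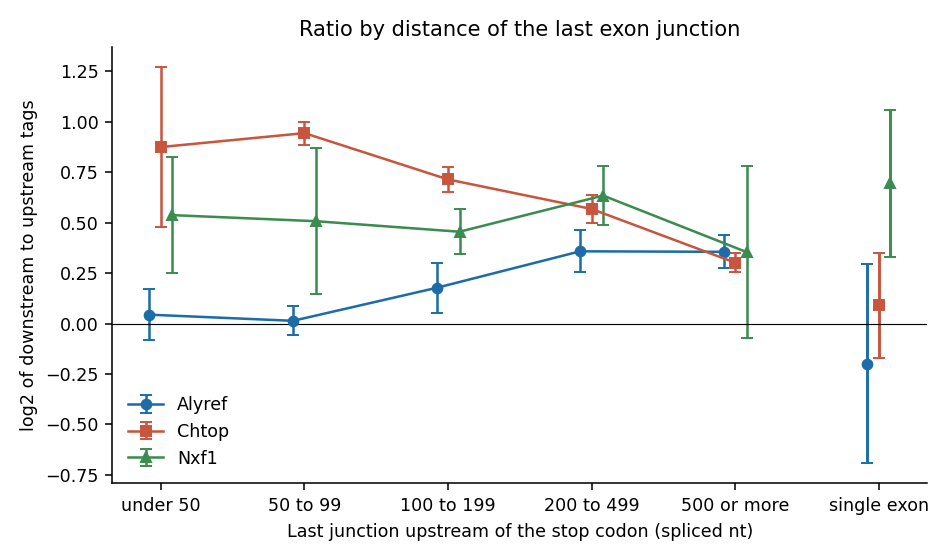
Log2 ratio of downstream to upstream tags (y axis, mean of 3 libraries, bars are SD) by the distance from the stop codon back to the last junction (x axis, spliced nt, with single-exon transcripts apart). Chtop fell from 0.94 at 50 to 99 nt to 0.30 at 500 nt or more, while Alyref rose from 0.01 to 0.36 over the same classes. Control is not drawn.

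Finer classes of distance showed the course of both factors. For a last junction under 50, 50 to 99, 100 to under 200, 200 to under 500 and 500 nt or more from the stop codon, the Chtop ratio was 0.87 ± 0.40, 0.94 ± 0.06, 0.71 ± 0.06, 0.57 ± 0.07 and 0.30 ± 0.05 (SD, n = 3). The Alyref ratio over the same classes was 0.04 ± 0.13, 0.01 ± 0.07, 0.18 ± 0.12, 0.36 ± 0.10 and 0.36 ± 0.08 (SD, n = 3). At 500 nt or more the Alyref and Chtop means differed by less than the SD of Alyref, and in the 609 single-exon windows the values were -0.20 ± 0.49 (SD, n = 3) and 0.09 ± 0.26 (SD, n = 3). Nxf1 ranged from 0.35 to 0.69 over these classes with no course beyond its SDs. From the nearest to the farthest junction, Control stood at 1.02 ± 0.21, 0.75 ± 0.95, 0.40 ± 0.30, 1.02 ± 0.35 and 0.76 ± 0.49 (SD, n = 3). Its means lay above those of Alyref and Chtop from 200 nt on. The uracil content differed little between windows with a junction (21.8% upstream, 27.7% downstream) and without (20.8% and 27.2%).

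The third comparison asks whether the balance changes where the stop codon lies in an earlier exon, so that a junction follows in the 3′ UTR. Tags were few here, 3499 in Alyref, 2638 in Chtop, 517 in Nxf1 and 82 in Control. The downstream side took 54.2%, 51.4% and 52.3% of them in Alyref, 50%, 61.0% and 60.5% in Chtop and 73.3%, 58.7% and 61.2% in Nxf1. Nxf1 1 held 15 tags, with a 95% Wilson interval of 48.0% to 89.1%, and Control 3 also held 15, with 26.7% downstream (10.9% to 52.0%). Intervals here cover counting error only.

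The log2 ratio was 0.15 ± 0.08 (SD, n = 3) in Alyref, 0.42 ± 0.36 (SD, n = 3) in Chtop, 0.84 ± 0.45 (SD, n = 3) in Nxf1 and 0.12 ± 1.33 (SD, n = 3) in Control. No factor differed from the other factors past 0.05 (exact permutation p = 0.095, 0.86 and 0.095 for Alyref, Chtop and Nxf1). With windows that overlap another gene left out, Alyref lay 0.83 below the other factors (exact permutation p = 0.0238, without adjustment). Nxf1 then stood at 1.14 ± 0.81 (SD, n = 3). Over all windows the Alyref difference was -0.33 without Nxf1 1. The earlier-exon ratio minus the last-exon ratio was 0.03, 0.02 and -0.09 in Alyref, -0.65, -0.00 and -0.08 in Chtop and 0.77, 0.04 and 0.25 in Nxf1. Nxf1 exceeded the other factors by 0.48 (exact permutation p = 0.0238, adjusted p = 0.0857), a difference that fell to 0.27 without Nxf1 1 and to 0.07 on the transcripts with longest coding sequence (exact permutation p = 0.29).

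Where the first 3′ UTR junction followed within 55 nt, in 816 windows, the ratio was 0.13 ± 0.01 in Alyref, 0.59 ± 0.27 in Chtop and 0.39 ± 0.81 in Control (SD, n = 3 each). The Nxf1 libraries stood at 1.93, 0.55 and 0.56, the first of them on 2 upstream and 9 downstream tags. In the 177 windows with the junction further on but under 200 nt away, it was 0.28 ± 0.16 in Alyref, 0.56 ± 0.15 in Chtop and -0.71 ± 1.22 in Control (SD, n = 3 each), and 1.58, 0.22 and 1.28 in the Nxf1 libraries, the first on a single tag. In the 154 windows with the junction 200 nt or more away, it was 0.02 ± 0.42 in Alyref, -0.25 ± 0.80 in Chtop, 0.05 ± 0.69 in Nxf1 and 0.91 ± 1.54 in Control (SD, n = 3 each). The SDs of the last class exceed the gaps between the factors.

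The stretch from -75 to -24 nt before a junction, was read at 705 3′ UTR junctions with at least 100 nt of exon on each side. This interval was taken from the study, which chose it for Alyref enrichment at internal junctions in these same libraries, so a high Alyref share in it is not independent evidence. It took 32.1%, 27.1% and 33.3% of the tags within 100 nt of these junctions in Alyref 1, 2 and 3, against 12%, 23.5% and 23.4% in Chtop, where an even spread would give 26.0%. The Alyref libraries lay above all Chtop libraries, on 923 tags against 755. Nxf1 2 and Nxf1 3 gave 15.5% and 13.6% on 84 and 59 tags, and Nxf1 1 had 1 of 4 tags there. Control gave 26.9% on 26 tags, with a 95% Wilson interval of 13.7% to 46.1% that includes the Alyref shares, so a difference of Alyref from background was not detectable at this depth.

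The balance was also read by stop codon, 3′ UTR length and sequence, without a test. With UAA, UAG or UGA as stop codon the Alyref ratio was between 0.13 ± 0.12 (SD, n = 3) at UAA and 0.22 ± 0.13 (SD, n = 3) at UAG, and the Chtop ratio 0.70 ± 0.05 (SD, n = 3) and 0.60 ± 0.05 (SD, n = 3). From the class of shortest 3′ UTRs, under 500 nt, to that of the longest, the ratio went from 0.28 ± 0.14 to 0.12 ± 0.13 (SD, n = 3) in Alyref and from 0.77 ± 0.13 to 0.55 ± 0.09 (SD, n = 3) in Chtop. The letters GGACT, a common context of the RNA mark m6A, were searched on the transcript strand only and occurred in 20.2% of upstream and 21.0% of downstream sides. The Alyref ratio was 0.05 ± 0.05 (SD, n = 3) where they occurred upstream only and 0.27 ± 0.18 (SD, n = 3) downstream only, and the Chtop ratio 0.57 ± 0.08 (SD, n = 3) and 0.76 ± 0.08 (SD, n = 3). Control rose likewise, from 0.68 ± 0.16 to 1.05 ± 0.78, whereas Nxf1 went from 0.63 ± 0.61 to 0.52 ± 0.10 (SD, n = 3 each). With the letters on both sides Alyref stood at 0.30 ± 0.15 and Chtop at 0.72 ± 0.13 (SD, n = 3 each). With them on neither side the values were 0.16 ± 0.09 and 0.63 ± 0.06 (SD, n = 3 each). Presence of these letters does not show methylation.

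Among the 5 windows with the highest CPM of each factor, SAT1 and ZNF711 were shared by all 3 factors, and ZNF711 was also among those of Control. SAT1, the rate-limiting enzyme of polyamine breakdown, held 15, 63 and 80 Alyref tags (139 ± 42.7 CPM, SD, n = 3), 10, 131 and 160 Chtop tags (276 ± 84.9 CPM, SD, n = 3), 5, 1 and 3 Nxf1 tags and 2, 1 and 0 Control tags. These Control tags amount to 102 ± 159 CPM (SD, n = 3), close to the Alyref level, with 285 CPM from the 2 tags of Control 1. Its stop codon is at chrX:23803971-23803973 on the plus strand in exon 6 of 6, 168 nt after the last junction. The 3′ UTR side held 114 of its Alyref tags against 43 upstream, and 194 of its Chtop tags against 105. ZNF711, an X-linked zinc finger protein (chrX:84526832-84526834, plus strand, exon 11 of 11), held 9, 76 and 68 Alyref tags, 11, 158 and 198 Chtop tags, 5, 5 and 1 Nxf1 tags and 1, 4 and 1 Control tags, and was nearly even over both sides (83 against 69 for Alyref, 195 against 166 for Chtop). Its levels were 115 ± 5.07 CPM in Alyref, 329 ± 118 CPM in Chtop and 85.1 ± 57.7 CPM in Control (SD, n = 3 each).

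Alyref and Chtop differed within the windows of some RNA-binding proteins. DDX39B, the DEAD-box helicase of TREX itself (chr6:31498211-31498213, minus strand, exon 11 of 11, 14 nt after the last junction), held 15, 77 and 55 Alyref tags and 2, 52 and 36 Chtop tags. Upstream of its stop codon lay 101 Alyref tags and 45 downstream, against 50 and 39 for Chtop. The window overlaps another annotated gene, the read-through ATP6V1G2-DDX39B. HNRNPH1, a splicing regulator (chr5:179042547-179042549, minus strand, exon 13 of 14), held 50 upstream and 76 downstream Alyref tags against 11 and 81 for Chtop. HNRNPL, a splicing regulator that binds CA repeats (chr19:39327362-39327364, minus strand, exon 13 of 13), held 50 and 43 Alyref tags and 19 and 39 Chtop tags. Its window too overlaps another gene.

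The next windows in Chtop were DDX5 and DDX17, paralogous DEAD-box helicases, and IRS4, an insulin receptor substrate. DDX5 (chr17:62496041-62496043, minus strand) held 10, 68 and 85 Chtop tags (179 ± 46.2 CPM, SD, n = 3) against 4, 32 and 30 Alyref tags (49.9 ± 0.74 CPM, SD, n = 3) and no Control tag. IRS4 (chrX:107965749-107965751, minus strand, exon 2 of 2, 2 nt after the junction, in a window that overlaps another gene) held 6, 66 and 94 Chtop tags and 1, 12 and 11 Nxf1 tags and no Control tag. DDX17 (chr22:38881940-38881942, minus strand) held 8, 40 and 53 Chtop tags but also 1, 9 and 1 Control tags, 121 ± 85.1 CPM (SD, n = 3), the highest level of the windows tagged in every Control library. The other Control windows were ZNF711, HSPA1B (an inducible heat shock protein of the Hsp70 family), WDR82 and LRRC41, with 3 to 6 Control tags each.

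The Nxf1 ranking rests on its shallowest library, where 1 tag is worth 123 CPM. After ZNF711 and SAT1 it named OGA, the enzyme that removes O-GlcNAc, with 3, 1 and 1 tags, EEF2, translation elongation factor 2, with 2, 10 and 7 tags, and SRSF1, a splicing factor, with 2, 8 and 2 tags. EEF2 held 15 of its Nxf1 tags downstream and 4 upstream, against 17 and 22 for Alyref.

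Among the windows with stop codon in an earlier exon, those with most factor tags were HNRNPH1, ATP6V1G2-DDX39B, SRSF2, TNPO2, ZWINT, CTPS1, RBM3 and YBX3. SRSF2, a splicing factor (chr17:74732243-74732245, minus strand, exon 2 of 3), held 29 upstream and 11 downstream Alyref tags and 43 upstream and 2 downstream Chtop tags, where the downstream side runs over the 3′ UTR junction of the canonical transcript. YBX3, a cold shock domain protein (chr12:10853887-10853889, minus strand), went opposite ways, with 15 and 5 Alyref tags against 7 and 24 Chtop tags. TNPO2, a nuclear import receptor (chr19:12812160-12812162, minus strand), held 22 and 26 Alyref tags and 13 and 26 Chtop tags, and CTPS1, which makes CTP (chr1:41475915-41475917, plus strand), 15 and 21 and 10 and 11. ZWINT, a kinetochore protein, held 16 upstream and 26 downstream Alyref tags and RBM3, a cold-induced RNA-binding protein, 12 and 15. In ATP6V1G2-DDX39B the downstream side, with 87 of 89 Alyref tags, overlaps exons of other genes, so its tags cannot be assigned.

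The genes of the tagged factors were also read at their own stop codons. Each line also carries the tagged coding sequence of its factor, so coding-side tags of the endogenous gene and the transgene cannot be told apart. Upstream and downstream lay 1 and 10 Alyref tags in ALYREF, 16 and 18 Chtop tags in CHTOP and 9 and 1 Nxf1 tags in NXF1. ALYREF held 0, 7 and 4 Alyref tags and 0, 7 and 0 Nxf1 tags. CHTOP held 2, 10 and 10 Alyref tags and 0, 18 and 16 Chtop tags. NXF1 held 0, 16 and 10 Alyref, 0, 13 and 7 Chtop and 0, 7 and 3 Nxf1 tags. None of these held a Control tag.

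Lists of genes around the stop codon and export were read for their windows. The hnRNP list (21 windows of 21 genes) took 1.14% of the Alyref window tags, 0.702% with Chtop, 1.14% with Nxf1 and 0.486% with Control, while making up 0.124% of the windows, and had a tag in 20, 21, 19 and 6 windows. The SR protein list (12 of 12) took 0.651%, 0.739%, 0.610% and 0.405% for 0.0706% of the windows, led by SRSF11, SRSF7 and SRSF6, with SRSF11 at 16 upstream and 38 downstream Alyref tags and 21 and 73 Chtop tags. The TREX and export list (16 of 19) took 0.598% of Alyref and 0.376% of Chtop window tags, and its log2 ratio was -0.69 ± 0.65 (SD, n = 3) in Alyref and -0.24 ± 0.53 (SD, n = 3) in Chtop. In pooled tags the Alyref upstream excess rested on DDX39B, whose window overlaps another gene. With DDX39B the list held 160 upstream and 118 downstream Alyref tags, and without it 59 and 73, with 59 and 72 for Chtop. The mean over libraries was then -0.73 ± 2.16 (SD, n = 3) in Alyref and 0.20 ± 0.28 (SD, n = 3) in Chtop. The SD of Alyref exceeds the size of its mean, so no direction can be read from that mean. This leave-out was chosen after seeing the data. The translation termination and nonsense-mediated decay list (19 of 20) took 0.255% of Alyref and 0.2001% of Chtop window tags for 0.112% of the windows, led by SMG1 (5 and 13 Alyref tags), GSPT1 and SMG5. mRNA abundance was not measured in these files, so these shares cannot be told apart from expression.

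Single sides of windows were too thinly tagged for most tests. Of 189559 tiles of 200 nt with a tag, counted outward from all stop codons, the low-count filter of edgeR kept 24, among them 2 sides of the windows, the downstream sides of SAT1 and ZNF711. Neither was called by the edgeR quasi-likelihood test at an adjusted p of 0.05 in any comparison, nor by DESeq2. At an unadjusted p below 0.05, edgeR gave 1 of them in a single comparison. This was SAT1 in Alyref against the other factors, with a log2 difference of 0.81, an SE of 0.29 and an edgeR adjusted p = 0.0761. Of all 24 tiles, edgeR called 16.7% higher and 0% lower in Alyref against Control, 12.5% higher and 4.17% lower in Chtop against Control, and 0% in Nxf1 against Control (4 higher and 0 lower at an unadjusted p below 0.05). Against the other factors it called 8.33% higher and 0% lower in Alyref, 0% higher and 4.17% lower in Chtop, and 4.17% higher and 0% lower in Nxf1.

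A broader edgeR fit, chosen after seeing how few tiles passed, took all 32821 tiles with at least 10 tags in sum and scaled by all tags of each library. It tested 3198 sides of the windows. The sum runs over all libraries, so a tile can pass through the factor where it is high. Over all tiles the median log2 difference to the other factors was 0.738 for Alyref, 1.39 for Chtop and -2.8 for Nxf1. The calls below include this general offset, whose cause was not tested. Chtop was called higher than the other factors at 364 of these (11.4%), against 11.9% of all tiles, and lower at 13 (0.407%), against 0.43%. On the downstream side 14.1% (274 of 1940) were higher in Chtop, against 21.8% of the other tiles downstream of stop codons, and on the upstream side 7.15% (90 of 1258), against 7.58% of the other tiles upstream. Alyref was higher at 6 sides and lower at 5 (0.188% and 0.156%), against 1.34% and 0.104% of all tiles. Nxf1 was higher at 6 and lower at 0 (0.188% and 0%), against 0.0853% and 0.0122%. The Chtop share over both sides was close to that of all tiles, and the share on the downstream side was below that of other downstream tiles, a difference that was not tested. The count for Chtop rests on single libraries, with 20 sides without Nxf1 3, 46 without Chtop 3, 118 without Nxf1 2, 177 without Chtop 2, 200 without Alyref 3 and 0 with TMM scaling, whose factors ran from 0.249 to 7.38 on these sparse counts.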

How the data were processed

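The deposited values are counts: for each crosslinked base and strand, the authors gave the number of deduplicated reads (tags) per library, pooled over lanes. Per the labels and methods, phiX reads were removed with Bowtie 1.1.2, reads mapped uniquely to hg19 with STAR 2.4.2a and duplicates collapsed by molecular barcode with UMI-tools 0.5.3, so that a tag stands for 1 cDNA. Pooled files were not used, and per-sample columns left unused numbered 0.

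Windows were built from GENCODE 44 lifted to GRCh37, without the mitochondrial chromosome, and tags were placed by spliced distance on the transcript strand. Of the windows, 1522 overlap an exon of another gene and 139 have under 200 nt of coding sequence. The members and gene lists were chosen with earlier results of these data known. Ratios per library were compared by two-sided exact permutation tests (scipy 1.17.1) with Benjamini-Hochberg adjustment. Tags per 200-nt tile were fitted with edgeR 4.0.16 (TMM, filterByExpr, quasi-likelihood, 12 libraries in 1 fit) in R 4.3.3, with DESeq2 1.42.0 as alternative. Scripts were tested on simulated data. Named windows were the 5 with highest mean CPM in each group and a tag in each of its libraries, called tiles, the 8 earlier-exon windows with most factor tags, the genes of the tagged factors, and the 3 most tagged of each list. Each factor was compared with the 6 libraries of the other factors and with the 3 Control libraries, in 2 families of 18 tests. Intervals are 95% Wilson intervals. Alternatives were other windows, weights, transcripts and filters, the replicate number as a block, and leaving out each library.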

Additional observations from a re-analysis of the deposited data

Results flagged for a closer look

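The difference between earlier-exon and last-exon windows was itself larger in Nxf1 than elsewhere among the factors, a log2 gap of 0.48 (exact permutation p = 0.0238, adjusted p = 0.0857), with 15 earlier-exon tags in Nxf1 1. It was 0.27 without Nxf1 1 and 0.071 on longest-CDS transcripts (exact permutation p = 0.0714 and 0.286).

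The difference between last-exon windows with and without a junction was larger in Chtop than in the other factors by 0.50 (exact permutation p = 0.0476, adjusted p = 0.143).

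The density of the penultimate exon relative to the coding part of the last exon was positive in 3 of 3 Alyref and negative in 3 of 3 Chtop libraries, with means 0.84 apart on the log2 scale. This difference was not tested.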

How the results depend on the processing

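Of the ratios and shares, 198 of the values under other settings kept direction and side of the 0.05 threshold, 22 changed sign, 16 lost and 10 gained a p below 0.05, and the causes were not tested. Part of these counts was fixed in advance. Against Control no exact permutation p can fall below 0.1, so those values could not change side. With the replicate block the smallest exact permutation p is 0.0741, so every p below 0.05 had to be lost. Changes of sign were confined to differences with p above 0.05. Depth limits the Control and replicate 1 libraries most.

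With windows weighted equally, the last-exon ratio of Chtop minus Control was 0.022. In earlier exons Alyref was at -0.51 (exact permutation p = 0.0476) and Chtop at 0.032 against the other factors, and -0.18 for Alyref against Control. The earlier minus last difference was 0.45 for Nxf1, the proximal share -0.19 points for Alyref, the window to flank ratio 0.13 for Nxf1 and -0.036 for Alyref against Control. The junction difference was -0.41 for Alyref, 0.40 for Chtop and 0.015 for Nxf1. Without windows that overlap another gene, the earlier-exon ratio was -0.83 for Alyref and 0.028 for Chtop, the window to flank ratio 0.11 for Nxf1, and the junction difference -0.44 for Alyref and -0.044 for Alyref against Control. On longest-CDS transcripts, the earlier-exon ratio was -0.38 for Alyref and 0.23 for Chtop, the earlier minus last difference 0.012 for Alyref and 0.071 for Nxf1, the window to flank ratio -0.030 for Alyref against Control, and the junction difference -0.40 for Alyref. On uracils alone, the last-exon ratio of Chtop was 0.20, the earlier minus last difference 0.011 for Alyref and 0.30 for Nxf1, the proximal share -2.39 points for Nxf1, and the junction difference -0.055 for Alyref against Control. With each base counted once, the earlier minus last difference was -0.41 for Chtop and the proximal share -0.0314 points for Alyref. Within 25 nt, the proximal share was -0.223 points for Alyref and 1.36 for Chtop.

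With 100 nt on each side, the last-exon ratio was 0.13 for Chtop, and the earlier-exon ratio 0.40 for Nxf1, -0.27 for Alyref against Control and -0.20 for Chtop against Control. The earlier minus last difference was 0.29 for Nxf1 and -0.12 for Chtop against Control. The junction difference was 0.29 for Chtop and 0.085 for Nxf1 against the other factors, and -0.56, -0.11 and -0.25 for Alyref, Chtop and Nxf1 against Control.

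Over the 24 tiles kept by the low-count filter, same-numbered libraries did not deviate together, so the numbers were not taken as pairs. Correlations were -0.467 to 0.204, against -0.472 to 0.546 for other pairs, with 1 of 12 libraries closest to its own number. So few tiles can neither show nor exclude a shared effect of replicate number. Replicate 2 of each group ran on other HiSeq lanes than replicates 1 and 3. With the replicate block the smallest exact permutation p is 0.0741, reached by the last-exon ratio of Alyref (-0.41) and Chtop (0.34), the earlier minus last difference of Nxf1 (0.48) and the window to flank ratio of Alyref (-0.13) and Nxf1 (0.11), and the junction difference of Chtop (0.50) had p = 0.148.

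Leaving out 1 library, 228 values kept direction and side of the threshold, 17 changed sign, 23 lost and 2 gained a p below 0.05. With 2 libraries of a factor left, p cannot pass 0.05, and no comparison with Control can pass it. Against the other factors, the last-exon ratio of Alyref ran from -0.44 to -0.36, that of Chtop from 0.28 to 0.39 and that of Nxf1 from -2.54e-05 to 0.13. The earlier-exon ratio ran from -0.60 to -0.33 for Alyref and -0.19 to 0.14 for Chtop. The earlier minus last difference ran from -0.21 to 0.074 in Alyref, -0.53 to -0.21 in Chtop and 0.27 to 0.64 in Nxf1. The proximal share ran from -0.318 to 0.357 points for Alyref. The window to flank ratio ran from -0.15 to -0.11 for Alyref and 0.069 to 0.13 for Nxf1, and the junction difference of Chtop from 0.47 to 0.59, with p of 0.0714 or 0.143 without any Chtop or Alyref library, Nxf1 2 or Nxf1 3 (exact permutation). Against Control, the last-exon ratio of Chtop ran from -0.20 to 0.12, the earlier-exon ratio from -0.70 to 0.59, -0.43 to 0.85 and -0.017 to 1.27 for Alyref, Chtop and Nxf1, the earlier minus last difference from -0.33 to 1.28 for Alyref and -0.55 to 1.06 for Chtop, the window to flank ratio of Alyref from -0.050 to 0.084 and its junction difference from -0.12 to 0.28.

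Counts of tiles called by edgeR depended on scaling and filter. With all tags as library size, Alyref, Chtop and Nxf1 gave 1, 46 and 13 tiles against the other factors, 3 and 2 of them window sides in Chtop and Nxf1, and Alyref and Chtop gave 0 and 36 against Control, 1 a window side in Chtop. Without the low-count filter there were 0 tiles for each factor against the others, and 1 and 25 for Alyref and Chtop against Control. DESeq2 gave 1 for Alyref and 0 for Nxf1, and the replicate block 0 for Chtop and 0 for Nxf1. Leaving out 1 library, counts against Control ran from 0 to 40, 6 to 43 and 0 to 23 for Alyref, Chtop and Nxf1, with 0 to 3, 0 to 4 and 0 to 4 window sides, and against the other factors from 0 to 11, 0 to 36 and 5 to 18, with 0 to 2, 0 to 7 and 2 to 8 window sides. In the broader fit the window sides higher in Alyref, Chtop and Nxf1 ran from 1 to 9, 20 to 367 and 1 to 7. With TMM it gave 0 for Chtop and 0 for Nxf1, and with TMM and the replicate block 28, 66 and 3.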
